A study of Mus musculus with 12 samples.

Results

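The genes of the integrated stress response followed here are Atf3, Atf4, Atf5, Ddit3, Ppp1r15a, Trib3, Chac1 and Asns. They were taken by gene name from the deposited count table, which holds 54532 genes. All 8 were found, and all 8 were among the 14473 genes that passed a filter on low counts. B lymphocytes sorted from wild type mice and from Tmem173-/- mice were cultured as controls or exposed for 12 hours to 3'3'-cGAMP, a bacterial cyclic dinucleotide that binds STING, the protein encoded by Tmem173. Poly-A RNA was sequenced from 12 libraries, with 3 in each of the 4 combinations of genotype and treatment. The labels name 3 mice per genotype and give no age, dose or control treatment, and they do not say which mouse gave which library. Since nothing states that the libraries of a group are separate mice, p-values measure the spread between these libraries.

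In the integrated stress response, kinases that sense double-stranded RNA, misfolded proteins in the endoplasmic reticulum, amino acid shortage or heme shortage phosphorylate the translation initiation factor eIF2 alpha. This lowers general protein synthesis while favouring translation of a few mRNAs, among them those of the transcription factors ATF4 and ATF5. ATF4 and its partners then act on genes for amino acid supply, on the transcription factor genes Atf3 and Ddit3 (CHOP), and on Ppp1r15a (GADD34), whose product brings a phosphatase back to eIF2 alpha. Much of the pathway's control is translational, and neither eIF2 alpha phosphorylation nor translation was measured here.

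Library totals ran from 26490593 to 31417833 counts, with 18556 to 19727 genes detected. In CPM, which scales each count by its library's total after TMM normalization, Tmem173 RNA stood at 91.2, 102 and 92.7 in the wild type controls and at 80.2, 94.7 and 103 in those of Tmem173-/-. After cGAMP it stood at 44.7, 49.2 and 48.0 in wild type and at 82.9, 101 and 95.9 in Tmem173-/- cells. Tmem173 RNA thus overlapped between the controls of the genotypes and was lower in wild type than in Tmem173-/- libraries after cGAMP, so it does not mark the labelled genotype, and directions between genotypes rest on the labels. Summed over 7 B cell markers, all detected in every group, levels were 4722 to 5711 CPM in wild type controls, 3359 to 4107 CPM in wild type cGAMP libraries and 4908 to 5954 CPM in the Tmem173-/- libraries. The libraries numbered 1 in the wild type stood apart in 8 T cell markers (10.5 CPM in the control and 27.0 CPM after cGAMP, at most 2.21 CPM elsewhere) and in 7 neutrophil markers (9.26 and 23.8 CPM, at most 1.77 CPM elsewhere, with Elane at 0 in all 4 groups). The wild type responses of the 8 genes and of the lists around them are therefore also given without both of these libraries.

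Short stretches of the promoters are shown because the factors of the pathway bind known motifs, and 4 of these were searched in RefSeq windows (GRCm38.p6) from 250 bases before to 50 bases after the annotated start of each gene. All 8 genes matched a window by symbol. The C/EBP-ATF response element (CARE), read as TGATGNAA on either strand, was found in 4 of 8 genes and in 3.97% of 32851 windows. Each line gives 30 bases, 5′ to 3′ on the strand that reads TGATGNAA, with the match in capitals.
Atf3: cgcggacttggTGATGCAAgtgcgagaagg
Trib3: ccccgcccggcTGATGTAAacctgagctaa
Chac1: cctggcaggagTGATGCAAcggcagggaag
Asns: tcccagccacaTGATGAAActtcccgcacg
These bases lie at chr1:191183425-191183454, chr2:152344028-152344057, chr2:119351038-119351067 and chr6:7693214-7693243. The match lies at positions -110 to -103 of Atf3, 15 to 22 of Trib3, -193 to -186 of Chac1 and -23 to -16 of Asns, counted from the RefSeq start, and that of Asns falls in an exon of the GENCODE annotation. It reads along the gene in Asns and on the opposite strand in the other three.

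The cAMP response element (CRE, TGACGTCA, a palindrome) occurred in Ppp1r15a and in 1.79% of windows. The AP-1 motif TGANTCA occurred in Ddit3 and in 7.81% of windows. The interferon-stimulated response element, read as GAAANNGAAA, occurred in Ppp1r15a and in 3.44% of windows. No match overlapped that of another motif. Longer stretches are given for Ppp1r15a and Atf3 because these genes had the largest changes of the 8 in the wild type response. For Ppp1r15a they are the 250 bases before its first exon (minus strand, chr7:45526269-45526518). For Atf3 they are the first 243 bases of its window (minus strand, chr1:191183341-191183583), up to the first annotated exon within that window. This Atf3 stretch lies inside the annotated gene, which spans chr1:191170296-191218039. Capitals mark the interferon-stimulated response element and the CRE in Ppp1r15a and the CARE in Atf3, which here reads as its reverse complement.
Ppp1r15a: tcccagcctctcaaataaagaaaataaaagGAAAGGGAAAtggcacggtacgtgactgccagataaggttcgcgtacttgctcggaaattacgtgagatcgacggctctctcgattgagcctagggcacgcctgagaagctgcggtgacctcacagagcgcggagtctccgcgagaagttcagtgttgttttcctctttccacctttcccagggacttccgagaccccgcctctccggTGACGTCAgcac
Atf3: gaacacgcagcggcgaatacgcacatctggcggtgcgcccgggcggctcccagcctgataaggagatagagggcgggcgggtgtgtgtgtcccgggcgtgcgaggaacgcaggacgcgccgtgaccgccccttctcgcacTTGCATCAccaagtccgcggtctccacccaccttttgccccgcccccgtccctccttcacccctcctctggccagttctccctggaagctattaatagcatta
A match of letters is a description of the sequence, and binding was not measured.

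Wild type libraries with and without cGAMP were compared to ask which of the 8 transcripts respond to a STING ligand in B cells. The RNAs of Atf3, Atf4, Ddit3 and Ppp1r15a rose, those of Atf5, Trib3, Chac1 and Asns did not pass the test, and none fell. The 4 of 8 that rose stand against 22.4% of all tested genes called higher and 25.4% called lower, by edgeR's quasi-likelihood test at an adjusted p under 0.05. Limma-voom and DESeq2 also called 4 of the 8. The 8 genes were chosen with earlier results of these data known, so their share is descriptive and carries no test. In the same 4 genes all 3 cGAMP libraries lay above all 3 controls, which held for 26.0% of tested genes. The median log2 fold change was 0.54 over the 8 genes and -0.004 over all tested genes. In these bulk libraries, fewer or more cells of a type and less or more RNA per cell cannot be told apart.

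**Figure D1:**
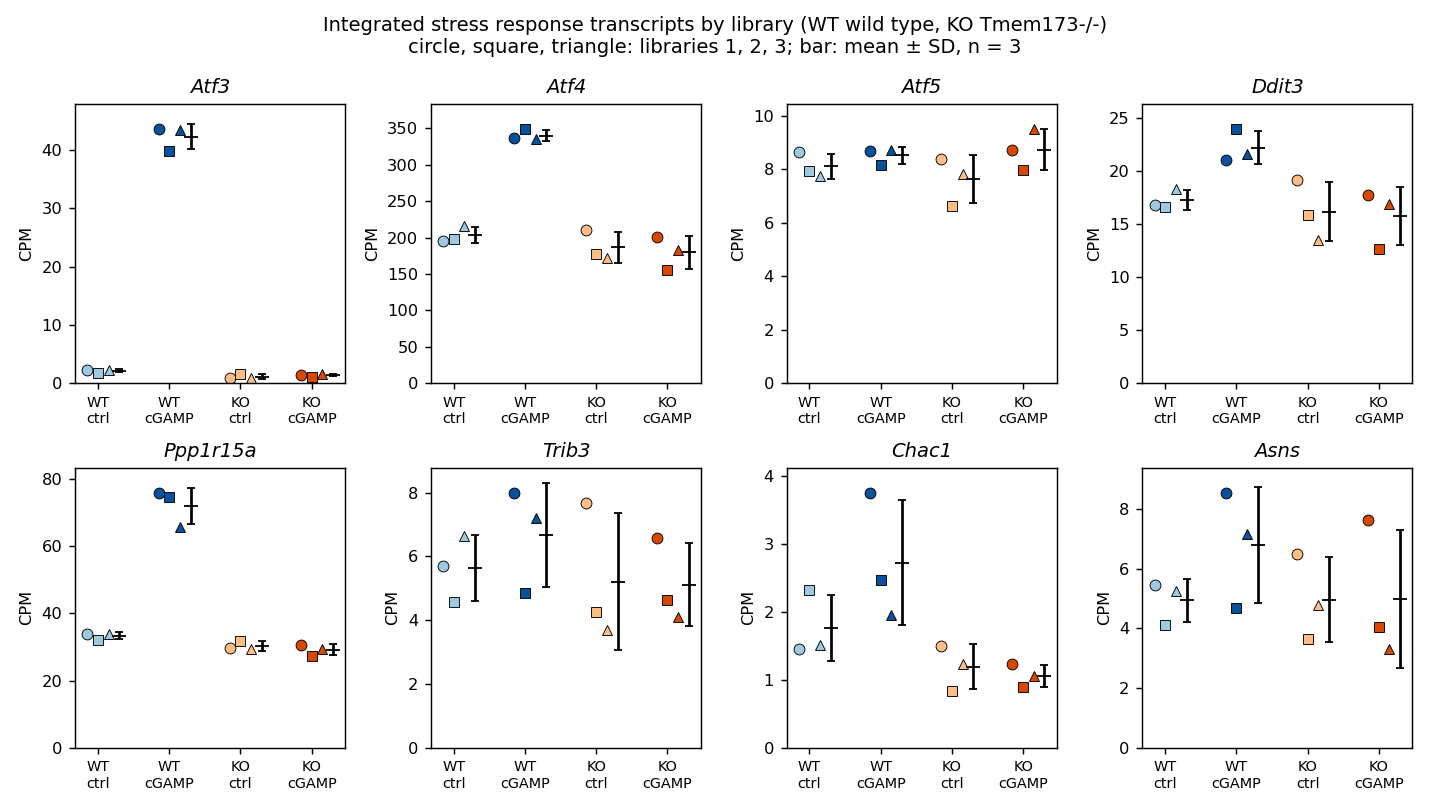
CPM (linear axis from 0) of each of the 8 genes in the 12 libraries, with circles, squares and triangles for libraries 1, 2 and 3 and a bar for the mean ± SD of 3 libraries; WT is wild type and KO is Tmem173-/-. The wild type cGAMP libraries stand above all others for Atf3 (39.8 to 43.6 CPM), Atf4, Ddit3 and Ppp1r15a, and overlap other groups for Atf5, Trib3, Chac1 and Asns.

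Atf3 (ENSMUSG00000026628, GRCm38 chr1:191170296-191218039, minus strand), a stress-induced transcription factor of the ATF/CREB family, changed most. Its level was 2.24, 1.83 and 2.37 CPM in wild type controls and 43.6, 39.8 and 43.4 CPM after cGAMP. It was 0.916, 1.58 and 0.912 CPM in Tmem173-/- controls and 1.49, 1.17 and 1.56 CPM in Tmem173-/- cells after cGAMP. The wild type cGAMP libraries were thus far above all 9 others, among which no library exceeded 2.37 CPM. In wild type cells Atf3 rose 19.6-fold (log2 fold change 4.30, SE 0.18, edgeR adjusted p = 5.58e-11), between means of 2.15 ± 0.282 and 42.3 ± 2.12 CPM (SD, n = 3), and ranked 37 among all tested genes by fitted change. These levels rest on 52 to 67 counts in the controls and on 1156 to 1218 counts after cGAMP. Without both wild type libraries numbered 1 the log2 fold change was 4.30.

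Ppp1r15a (ENSMUSG00000040435, chr7:45522916-45526268, minus strand) encodes the inducible subunit that directs protein phosphatase 1 to eIF2 alpha. Wild type controls had 34.0, 32.1 and 33.9 CPM, and wild type cGAMP libraries 75.7, 74.5 and 65.7 CPM. Tmem173-/- controls had 29.7, 31.9 and 29.3 CPM, and Tmem173-/- cGAMP libraries 30.6, 27.4 and 29.5 CPM. The wild type cGAMP libraries again stood clear of all others, and the Tmem173-/- groups overlapped each other. Ppp1r15a rose 2.16-fold in wild type cells (1.11 on the log2 scale, SE 0.08, edgeR adjusted p = 4.38e-08), and the log2 fold change was 1.08 without both libraries numbered 1. Its counterpart Ppp1r15b, the constitutive subunit, rose by 0.25 on the log2 scale (SE 0.07, edgeR adjusted p = 0.00922), from 199 ± 10.3 to 237 ± 10.9 CPM (SD, n = 3).

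Atf4 (ENSMUSG00000042406, chr15:80255184-80257541, plus strand) encodes the central transcription factor of the pathway. Its values were 196, 198 and 215.5 CPM in wild type controls and 336, 349 and 335 CPM after cGAMP. In Tmem173-/- cells they were 211, 177 and 172 CPM in controls and 201, 155 and 183 CPM after cGAMP. Only the wild type cGAMP libraries were above 216 CPM. Atf4 rose 1.67-fold in wild type cells (0.74 on the log2 scale, SE 0.10, edgeR adjusted p = 1.80e-05). Without both libraries numbered 1 the log2 fold change was 0.72.

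Ddit3 (ENSMUSG00000025408, chr10:127290774-127296288, plus strand) encodes CHOP, a partner of ATF4 associated with death under prolonged stress. The wild type libraries had 16.7, 16.6 and 18.3 CPM without cGAMP and 21.0, 23.9 and 21.6 CPM with it. Tmem173-/- cells had 19.1, 15.9 and 13.5 CPM without it and 17.7, 12.7 and 16.9 CPM with it. The wild type groups did not overlap, but the highest Tmem173-/- control lay less than 2 CPM below the lowest wild type cGAMP library. The rise in wild type cells was 1.29-fold (log2 fold change 0.37, SE 0.14, edgeR adjusted p = 0.0403). It did not pass when any 1 of the 6 wild type libraries was left out (edgeR adjusted p from 0.0510 to 0.134), nor without both libraries numbered 1 (log2 fold change 0.38, edgeR adjusted p = 0.117). Ddit3 shares 68 exonic bases with Mars on the opposite strand, a gene that also rose (log2 fold change 0.39, edgeR adjusted p = 0.00529), and since strandedness is not stated, reads there cannot be told apart.

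**Figure D2:**
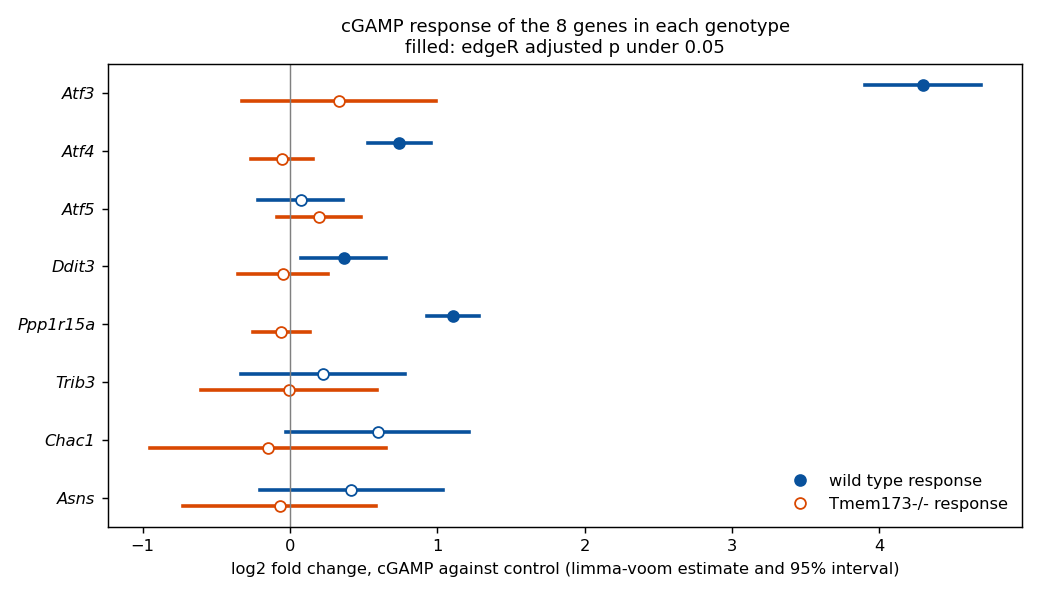
Log2 fold change of cGAMP against control with 95% limma-voom intervals for each gene, blue for wild type and orange for Tmem173-/-, filled where edgeR's adjusted p was under 0.05. Atf3, Atf4, Ddit3 and Ppp1r15a are filled in wild type cells, and all Tmem173-/- intervals include 0.

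Atf5 (ENSMUSG00000038539, chr7:44812256-44816658, minus strand), whose mRNA like that of Atf4 is translated when eIF2 alpha is phosphorylated, stayed in a narrow range. Wild type controls had 8.66, 7.95 and 7.74 CPM and wild type cGAMP libraries 8.70, 8.16 and 8.72 CPM. Tmem173-/- controls had 8.40, 6.65 and 7.84 CPM and Tmem173-/- cGAMP libraries 8.71, 7.99 and 9.51 CPM. All 4 groups overlapped. The wild type difference was 0.07 on the log2 scale (edgeR adjusted p = 0.689), with a 95% limma-voom interval from -0.22 to 0.36, whose upper end is below the change of Atf4, and it was 0.10 without both libraries numbered 1. Atf5 shares 82 exonic bases with Nup62 on the opposite strand.

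Trib3 (ENSMUSG00000032715, chr2:152337422-152344032, minus strand), a pseudokinase that restrains ATF4 and CHOP, had 5.70, 4.58 and 6.64 CPM in the wild type controls and 7.97, 4.86 and 7.19 CPM after cGAMP. Cells of Tmem173-/- mice had 7.68, 4.27 and 3.69 CPM in controls and 6.59, 4.63 and 4.11 CPM after cGAMP. The groups overlapped in both genotypes. The wild type log2 difference was 0.24 (edgeR adjusted p = 0.491), with a 95% limma-voom interval from -0.34 to 0.78, and it was 0.10 without both libraries numbered 1.

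Chac1 (ENSMUSG00000027313, chr2:119351229-119354381, plus strand), which encodes an enzyme that degrades glutathione, had 25 to 103 counts per library. The wild type controls were at 1.46, 2.32 and 1.52 CPM and the wild type cGAMP libraries at 3.75, 2.48 and 1.96 CPM. Tmem173-/- libraries were at 1.50, 0.840 and 1.24 CPM as controls and at 1.23, 0.899 and 1.05 CPM after cGAMP. In the wild type only the third cGAMP library overlapped the controls. The log2 difference of 0.62 (SE 0.31) did not pass (edgeR adjusted p = 0.114), with a 95% limma-voom interval from -0.03 to 1.22, and it was 0.20 without both libraries numbered 1.

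Asns (ENSMUSG00000029752, chr6:7675169-7693254, minus strand) encodes asparagine synthetase, a classical ATF4 target. Levels were 5.45, 4.12 and 5.27 CPM in the wild type controls and 8.52, 4.68 and 7.16 CPM after cGAMP. The Tmem173-/- levels were 6.47, 3.63 and 4.78 CPM in controls and 7.63, 4.03 and 3.30 CPM after cGAMP. The wild type groups overlapped through the cGAMP library numbered 2. The log2 difference of 0.46 (SE 0.30) did not pass (edgeR adjusted p = 0.231), with a 95% limma-voom interval from -0.20 to 1.04, and it was 0.33 without both libraries numbered 1.

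Trib3, Asns and Chac1 differed more between libraries of one group than Atf4 and Ppp1r15a did. Their coefficients of variation were 18.4% to 41.5% for Trib3, 14.6% to 46.6% for Asns and 15.6% to 33.8% for Chac1, against 2.31% to 12.8% for Atf4 and 3.16% to 7.63% for Ppp1r15a. Atf5 and Ddit3 reached 11.7% and 17.4%, and Atf3 5.02% in wild type cGAMP and 33.8% in Tmem173-/- controls, where its counts were low. The medians over all tested genes were 9.75% to 13.5% in the 4 groups. Trib3 and Asns were both lowest in the library numbered 2 in both wild type groups, and both highest in the library numbered 1 in wild type cGAMP and in both Tmem173-/- groups. Within Tmem173-/- cGAMP, where no response was called, the highest Asns level was 2.32-fold the lowest.

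**Figure D3:**
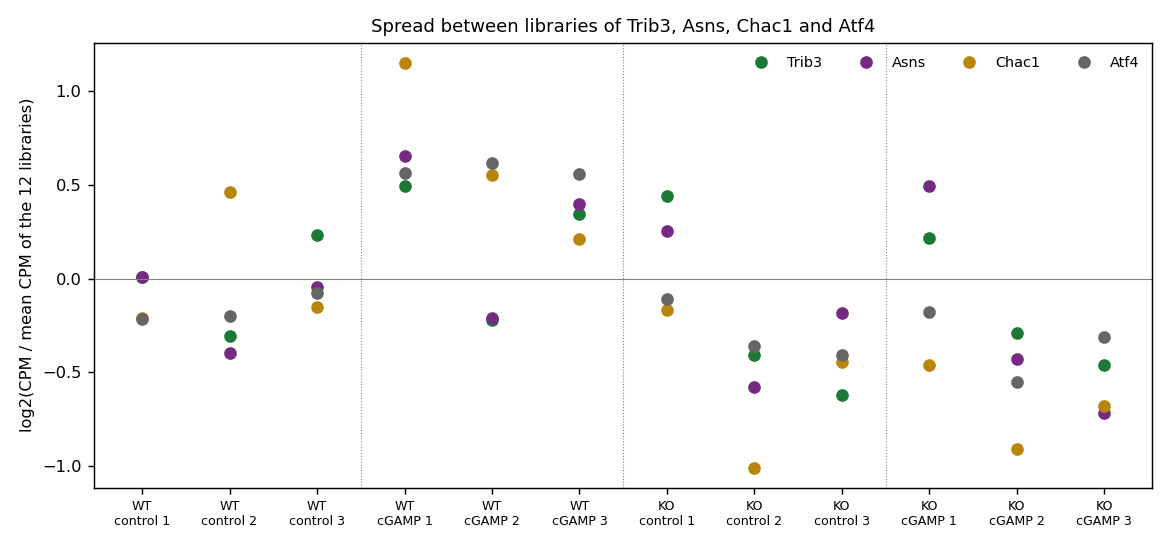
Log2 of CPM over the mean of the 12 libraries for Trib3, Asns, Chac1 and Atf4 in each library, 1 point per gene and library, with dotted lines between the groups; WT is wild type and KO is Tmem173-/-. Trib3 and Asns are spread widely within groups and high together in several libraries numbered 1, while the 3 Atf4 points of wild type cGAMP lie close together.

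In Tmem173-/- cells, none of the 8 genes passed between cGAMP and control. EdgeR called 0% of all tested genes there, with 0 genes also by limma-voom and by DESeq2, and 203 genes, none of them among the 8, at an unadjusted p under 0.05. All 8 overlapped between the 2 groups, while the groups did not overlap for 6.64% of tested genes. The 95% limma-voom intervals of the log2 difference ran from -0.27 to 0.16 for Atf4, from -0.25 to 0.13 for Ppp1r15a and from -0.35 to 0.26 for Ddit3. Each of these leaves out the rise fitted in the wild type, but for Ddit3 the wild type interval, from 0.08 to 0.65, overlaps it. For Atf3 the interval was wider, from -0.32 to 0.99, on 25 to 47 counts per library. Atf5, Trib3, Chac1 and Asns had log2 differences of 0.20, -0.04, -0.18 and 0.001, and the interval of Chac1 ran from -0.95 to 0.65.

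The difference between the responses was tested directly, as the Tmem173-/- response minus the wild type response. Atf3, Atf4 and Ppp1r15a passed, all with a smaller response in Tmem173-/- cells, and limma-voom and DESeq2 also called 3 of the 8. Over all tested genes, edgeR called 14.1% lower and 17.5% higher in this contrast. The log2 difference was -4.00 for Atf3 (SE 0.28, edgeR adjusted p = 1.08e-07), -1.17 for Ppp1r15a (SE 0.12, edgeR adjusted p = 3.63e-06) and -0.80 for Atf4 (SE 0.14, edgeR adjusted p = 0.000555). That of Ddit3 was -0.40 and did not pass (edgeR adjusted p = 0.136), with a 95% limma-voom interval from -0.83 to 0.01. Chac1 had a difference as large as Atf4 (-0.80) but an SE of 0.46, and did not pass (edgeR adjusted p = 0.206).

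Under cGAMP, 5 of the 8 genes were lower in Tmem173-/- than in wild type cells, where edgeR called 23.5% of all tested genes lower and 24.9% higher. The 5 were Atf3, Atf4, Ddit3, Ppp1r15a and Chac1, and in each of them all Tmem173-/- libraries lay below all wild type libraries, as in 29.2% of tested genes. The log2 differences were -4.91 for Atf3, -1.36 for Chac1, -1.30 for Ppp1r15a, -0.92 for Atf4 and -0.49 for Ddit3. Chac1 passed here (SE 0.33, edgeR adjusted p = 0.00252), from 2.73 ± 0.921 CPM in wild type to 1.06 ± 0.165 CPM in Tmem173-/- (SD, n = 3). Trib3 and Asns had log2 differences of -0.39 and -0.45 and did not pass (edgeR adjusted p = 0.263 and 0.237), and the value for Asns moved with single libraries. It was -0.88 and passed without the Tmem173-/- cGAMP library numbered 1 (edgeR adjusted p = 0.0172). It was -0.22 without the Tmem173-/- cGAMP library numbered 3 and -0.25 without the wild type cGAMP library numbered 1 (edgeR adjusted p = 0.602 and 0.580). This contrast shares its wild type cGAMP libraries with the wild type response.

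Between the controls of the genotypes, none of the 8 genes passed. EdgeR called 0% of all tested genes there, limma-voom 0 genes and DESeq2 4 genes, none of them among the 8, and 921 genes, of which Atf3 was the only one of the 8, had an unadjusted p under 0.05 by edgeR. Atf3 and Ppp1r15a were lower in every Tmem173-/- control than in every wild type control, as were 4.08% of tested genes. Atf3 was at 1.14 ± 0.384 CPM against 2.15 ± 0.282 CPM (SD, n = 3), a log2 difference of -0.91 (SE 0.21, edgeR adjusted p = 0.728). Without the filter on low counts this difference passed (-0.91, edgeR adjusted p = 0.00424), in a test that called 151 of 26792 genes. Ppp1r15a differed by -0.14 on the log2 scale (edgeR adjusted p = 0.735). Chac1, which passed between the genotypes under cGAMP, also had a negative difference between the controls, of -0.56 (SE 0.33, edgeR adjusted p = 0.728). Its control groups overlapped.

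Levels of different genes can be compared only per length. By the deposited FPKM, which divides by gene length and library size, wild type controls held Atf4 at 134.5 ± 1.92, Ddit3 at 20.4 ± 0.0687 and Ppp1r15a at 17.6 ± 0.760 (SD, n = 3). Atf5, Trib3 and Asns followed at 5.72 ± 0.562, 5.16 ± 0.711 and 4.87 ± 0.643 FPKM and did not differ beyond their spread, and neither did Atf3 at 1.42 ± 0.140 and Chac1 at 1.06 ± 0.326 FPKM. After cGAMP in wild type cells the order was Atf4 at 236 ± 5.97, Ppp1r15a at 39.8 ± 3.23, Atf3 at 29.3 ± 1.45 and Ddit3 at 27.6 ± 1.95 FPKM, of which the last pair did not differ beyond their spread. Asns, Trib3 and Atf5 were at 7.02 ± 2.02, 6.44 ± 1.57 and 6.29 ± 0.228 FPKM and did not differ beyond their spread. Chac1 was at 1.70 ± 0.582 FPKM. Both Tmem173-/- groups had Atf4 highest (128 and 123 FPKM), then Ddit3 (19.8 and 19.3 FPKM) and Ppp1r15a (16.6 and 15.8 FPKM), and Atf3 and Chac1 below 1 FPKM.

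The order of these levels depends on the length used. Lengths recovered from counts and FPKM were shorter than those listed in the count table for all of the 8 but Chac1, for example 819 against 1713 bases for Ddit3. By the listed lengths, Ppp1r15a lay above Ddit3 in the wild type controls, at 11.4 against 10.1 CPM per kilobase, as it also did in both Tmem173-/- groups. In the same controls Atf5, Trib3 and Asns were set apart, at 4.07, 2.65 and 1.81 CPM per kilobase, and Chac1 and Atf3 were at 1.08 and 0.997. After cGAMP in wild type cells, Atf3 at 19.6 CPM per kilobase was above Ddit3 at 12.9, and Atf5, Trib3 and Asns were at 4.28, 3.14 and 2.48. By FPKM, Atf5, Trib3 and Asns did not differ beyond their spread in that group. By both lengths Atf4 was the highest of the 8 in every group, and Atf3 was among the lowest pair in every group but wild type cGAMP.

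The genes closest to Atf3 over the 12 libraries, by Euclidean distance of centred log2 CPM, were Zbtb32 (distance 1.42), Ifih1 (1.55), Oasl1 (1.61), Oasl2 (1.62) and Ifi211 (1.67), against a median distance of 7.34 over all tested genes. Ifi211, for example, had means of 2.78 CPM in wild type controls, 42.4 CPM in wild type cGAMP libraries and 1.17 and 1.40 CPM in the Tmem173-/- groups. Closest to Atf4 were Mak16 (0.196), Pisd (0.223), Wdr18 (0.229), Nup85 (0.249) and Orc2 (0.253), against a median of 1.74. These rankings describe likeness of pattern over libraries of 4 groups and carry no test.

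Genes around the pathway were counted against the 22.4% of all tested genes called higher and the 25.4% called lower in the wild type response. All lists here and below were chosen with earlier results of these data known, so their counts are descriptive and carry no test. Without both wild type libraries numbered 1, a setting added after seeing the data for these lists, these shares were 16.8% and 20.7%. Of 6 eIF2 alpha kinases and their regulators, 2 rose, 1 fell and 3 did not pass (median log2 fold change -0.06), the same counts as without those libraries. Eif2ak2, which encodes the double-stranded RNA sensor PKR, rose by 1.57 on the log2 scale (SE 0.14, edgeR adjusted p = 3.81e-07), between means of 58.0 ± 11.2 and 172 ± 7.01 CPM (SD, n = 3). The other three kinases did not pass, with log2 differences of -0.19 for Eif2ak1 (heme sensing), -0.16 for Eif2ak3 (PERK, endoplasmic reticulum) and 0.04 for Eif2ak4 (GCN2, amino acids). Gcn1l1, a co-activator of GCN2, rose by 0.48 and Dnajc3, an inhibitor of PERK and PKR, fell by 0.51 on the log2 scale. Of 12 genes for eIF2, its exchange factor eIF2B and the phosphatase, 5 rose and 2 fell with and without those libraries (median 0.16), led by the exchange factor subunit Eif2b3 (0.87) and the eIF2 subunits Eif2s2 (0.67) and Eif2s1 (0.64). The phosphatase catalytic subunits Ppp1ca and Ppp1cc, which work with Ppp1r15a, fell by 0.57 and 0.47.

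Basic leucine zipper (bZIP) factors can dimerise with ATF4, ATF3 and CHOP or bind related motifs, and 14 of 17 listed were tested. Of these 6 rose and 2 fell (median 0.46), against 22.4% and 25.4% of all tested genes. Without both wild type libraries numbered 1, 5 of 15 tested rose and 3 fell. Jun rose most, by 2.05 on the log2 scale, from 10.7 ± 1.77 to 44.1 ± 4.26 CPM (SD, n = 3), followed by Fos (1.18) and Jdp2 (0.87), while Fosl2 fell by 0.66 (by 0.99 without those libraries) and Jund by 0.64.

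Genes of amino acid supply that ATF4 is known to act on were counted by class in the wild type response. Of 10 transporters, 7 rose and none fell (median log2 fold change 0.73), and of 13 genes for aminoacyl-tRNA synthetases and tRNA export, 10 rose and none fell (median 0.42), against 22.4% of all tested genes called higher and 25.4% lower. Without both wild type libraries numbered 1, 4 transporters and 10 of the synthetase and export genes rose. Slc3a2, the heavy chain shared by several amino acid exchangers, rose from 166 ± 13.6 to 369.8 ± 24.8 CPM (SD, n = 3), by 1.15 on the log2 scale. The cationic amino acid transporter Slc7a3 rose by 1.19 and the cystine transporter Slc7a11 by 1.03, both at a few CPM, and neither passed without those libraries (edgeR adjusted p = 0.110 and 0.0725). Among the synthetases Cars rose by 0.81, Yars by 0.68 and Iars by 0.48. Of 13 tested genes for amino acid synthesis and one-carbon metabolism, to which Asns is related by function, 4 rose, 2 fell and 7 did not pass (median -0.04), and 4 rose and 1 fell without those libraries. Mthfd2 (1.06) and Shmt2 (0.70), mitochondrial enzymes of the folate pathway, and the serine synthesis gene Psat1 (0.58) rose, while Gpt2 fell by 0.53 and Pck2 by 0.34. Psat1 and Gpt2 did not pass without those libraries (edgeR adjusted p = 0.0843 and 0.1001).

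Of 12 tested stress effector targets, 5 rose, 4 fell and 3 did not pass (median 0.17), with the same counts of 5 and 4 without both wild type libraries numbered 1, and against 22.4% of all tested genes called higher and 25.4% lower. Pmaip1 and Bbc3, which encode the death-promoting proteins NOXA and PUMA, rose by 2.85 and 2.32 on the log2 scale, from 26.1 ± 1.18 to 188 ± 15.5 CPM and from 22.5 ± 3.39 to 112 ± 2.49 CPM (SD, n = 3). The death receptor gene Tnfrsf10b rose by 1.27. Ddit4, an inhibitor of mTORC1 signalling, fell by 1.24, and Trib2 and Trib1, relatives of Trib3, fell by 0.93 and 0.75. In the other arms of the unfolded protein response, those of XBP1 and ATF6, 4 of 18 genes rose, 5 fell and 9 did not pass (median -0.07), near those shares, and 3 rose and 5 fell without those libraries. The chaperone genes Hyou1 and Hspa5 rose by 0.45 and 0.41 and Edem1, of misfolded protein disposal, by 0.35, while Sdf2l1 fell by 0.62, Atf6 by 0.42 and both Pdia4 and Xbp1 by 0.37. In none of the 8 lists did a gene pass between cGAMP and control in Tmem173-/- cells, or between the controls of the genotypes, where edgeR called no gene of the whole table.

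**Figure D4:**
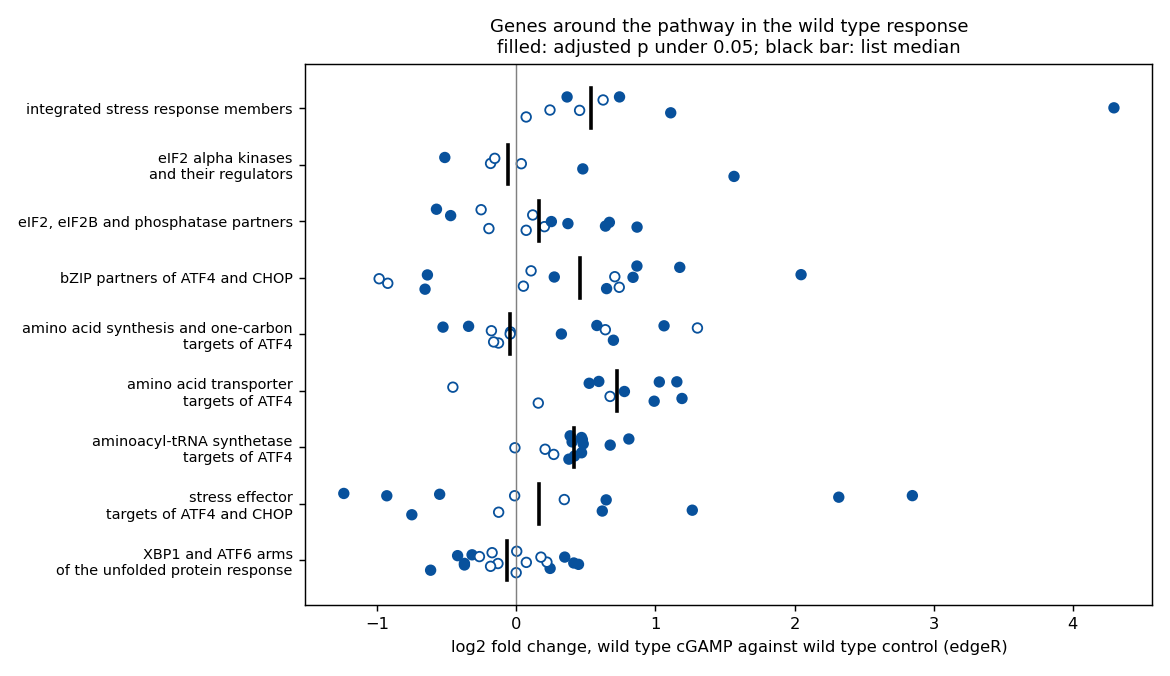
Log2 fold change of wild type cGAMP against wild type control (edgeR) for the 8 genes (top row) and for the tested genes of 8 lists around the pathway, 1 point per gene, filled where the adjusted p was under 0.05, with a black bar at each list's median. Transporters and synthetases lie mostly to the right of 0, with medians of 0.73 and 0.42, and the other lists spread to both sides.

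The direct test of the difference between genotypes called 10 of the 13 synthetase and tRNA export genes and 4 of the 10 transporters as having a lower difference, against 14.1% of all tested genes called lower and 17.5% higher, and none of either list as having a higher one. Without both wild type libraries numbered 1 it called 8 and 4 of them lower, against 10.6% of all tested genes lower and 14.7% higher. Eif2ak2 had a difference of -1.53 on the log2 scale (edgeR adjusted p = 4.38e-05), Pmaip1 of -2.86 (edgeR adjusted p = 2.13e-09) and Jun of -2.01 (edgeR adjusted p = 8.73e-07). Among the genes lower after cGAMP in the wild type, Ddit4 had a difference of 1.12 (edgeR adjusted p = 2.70e-05).

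Markers of other cell types moved with the wild type response as well. Summed over 7 genes, monocyte and macrophage markers were at 36.3 to 46.6 CPM in wild type controls and 10.8 to 18.7 CPM after cGAMP, with Ms4a7 at 0, and at 46.0 to 61.4 CPM in the Tmem173-/- groups. Summed over 6 genes, dendritic cell markers were at 15.2 to 20.1 CPM in wild type controls, 36.6 to 44.9 CPM after cGAMP and 17.6 to 24.4 CPM in the Tmem173-/- groups. NK cell markers, summed over 7 genes, were at 3.57 CPM in the wild type cGAMP library numbered 1 and at most 1.44 CPM elsewhere. The part of these cells in the results was not tested.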

How the data were processed

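Poly-A RNA of B lymphocytes was sequenced in 12 libraries. The authors deposited a count per gene and library and, separately, FPKM values. Per the submitters' processing notes, fastp, STAR and featureCounts were used with the builds GRCm38 and mm10. Versions, settings, annotation release and strandedness are not given in the sources used here. The deposited counts were whole numbers, 26490593 to 31417833 per library. CPM was computed from them after TMM scaling. Counting error is wider for genes of few counts, such as Chac1.

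The 8 members and the lists were chosen with earlier results of these data known. Named genes were the 8 members, in each list up to 3 called genes of the largest wild type change in each direction, the 5 genes nearest to Atf3 and to Atf4, and Tmem173. Other genes given for their role (Ppp1r15b and the eIF2 alpha kinases) and Mars were named after their values were seen.

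Counts were tested in R 4.3.3 with edgeR 4.0.16 (filterByExpr by group, 14473 genes, a mean for each of 4 groups, robust quasi-likelihood F tests, two-sided, Benjamini-Hochberg adjustment within each of 5 contrasts, threshold 0.05). The SE is the log2 fold change over the square root of F. Intervals are 95% intervals from limma-voom (limma 3.58.1), and DESeq2 1.42.0 was an alternative. Log2 CPM for distances used a prior count of 2. The scripts were tested on simulated data. Alternatives were 2 other scalings, no filter, only the compared groups, each library left out, both wild type libraries numbered 1 left out, a block for the library number and FPKM in place of CPM. The counts of the pathway lists without both wild type libraries numbered 1 were added after seeing the data.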

Additional observations from a re-analysis of the deposited data

Results flagged for a closer look

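For 3 of the 8 genes the response to cGAMP differed between the genotypes by a test of the difference itself. In this test edgeR called 14.1% of all tested genes lower and 17.5% higher, so such a difference was not particular to these genes. The Tmem173-/- response minus the wild type response was -4.00 on the log2 scale for Atf3 (edgeR adjusted p = 1.08e-07), -1.17 for Ppp1r15a (edgeR adjusted p = 3.63e-06) and -0.80 for Atf4 (edgeR adjusted p = 0.000555). In each of the 3 genes, all 3 wild type cGAMP libraries lay above all 3 wild type controls, and the Tmem173-/- groups overlapped. Among all tested genes, 26.0% lay above in this way, and the Tmem173-/- groups did not overlap for 6.64%. Groups of 3 libraries are too small for a test of single outlying libraries.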

How the results depend on the processing

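Over the alternatives, 3 or 4 of the 8 genes were called in the wild type response and 0 in the Tmem173-/- response. In the difference between them 3 were called, between controls 0 or 1, and between cGAMP groups 5 or 6. Of all tested genes, the main fit called 22.4% higher and 25.4% lower in the wild type response. These shares were 17.5% and 14.1% in the difference and 24.9% and 23.5% between cGAMP groups. They were 0% in the Tmem173-/- response and between controls. The 1 call between controls came with no filter on low counts and was Atf3. Without the filter, edgeR called 151 genes in that contrast against 0 with it, and 23 against 0 in the Tmem173-/- response; the cause was not tested. Ddit3 lost its wild type call in all 7 settings with fewer wild type libraries (log2 fold change 0.30 to 0.41). Atf3, Ppp1r15a and Atf4 kept theirs throughout, at 4.19 to 4.37, 1.07 to 1.18 and 0.71 to 0.81. Of 776 values of single genes under alternatives, 9 changed a call and 27 changed sign, all 27 in comparisons that were not called. Libraries that share a number within a genotype correlated in their deviations from the group mean by 0.083 to 0.300, and each library correlated best with its own number. Same-numbered libraries may therefore be pairs, but the labels do not state this, and the number was used only in an alternative. With the number as a replicate block, 4 genes were called in the wild type response, 0 in the Tmem173-/- response and 3 in the difference, and no call of the 8 changed. In the wild type response with this block, edgeR adjusted p was 0.0510 for Asns, 0.0945 for Chac1 and 0.222 for Trib3. Without the block it was 0.231, 0.114 and 0.491. Chac1 was lowest in library 1 of the wild type controls and highest in library 1 of wild type cGAMP. Adjusted p-values also depend on all other tested genes, and what part of the spread went with the library number was not tested. Counts were lowest for Chac1 and, outside wild type cGAMP, for Atf3; what part depth has in their error was not tested.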
